A study of Mus musculus with 4 samples.

Results

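The genes described here encode fibronectin (*Fn1*), osteopontin (*Spp1*) and 7 matricellular proteins, thrombospondin 1 (*Thbs1*), thrombospondin 2 (*Thbs2*), tenascin C (*Tnc*), periostin (*Postn*), SPARC (*Sparc*), the transforming growth factor β induced protein (*Tgfbi*) and matrix Gla protein (*Mgp*). They were picked out of the table by gene symbol, with no threshold on a measured value but with earlier results of these data known, and each symbol matched 1 row of the count table, which gave 9 genes of the 49315 in the table. All 9 passed the filter on low counts that kept 14840 genes for comparison. *Mgp* was picked by the study from these same libraries, so its values below are no independent evidence of its direction.

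Fibronectin is an adhesive glycoprotein that cells assemble into fibrils, and it forms part of the provisional matrix laid down after tissue injury. Matricellular proteins are secreted into the matrix without being its main building material, and they act on cells through integrins, syndecans and other receptors and by binding growth factors and proteases. Many of them are scarce in healthy adult tissue and abundant in wounds and in fibrotic lung, where fibroblasts and macrophages are known sources.

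Group 2 innate lymphoid cells (ILC2s) are lymphocytes without antigen receptors that make type 2 cytokines. The cells were enriched from mouse lung, sorted as cells positive for Thy1.2, ICOS and the IL-33 receptor T1/ST2 and negative for lineage markers that included CD11b and Ly6C, and cultured with IL-2 before RNA was extracted. The mice were WT C57BL/6 or congenic *Hps1*-/-, a null model of type 1 Hermansky-Pudlak syndrome, and received PBS or bleomycin, a drug that injures the lung and is used to induce fibrosis. Each of the 4 groups held 1 library. Of the PBS libraries, PBS-WT was made from 22405 cells and PBS-HPS1 from 38873, and of the bleomycin libraries, BLEO-WT was made from 84166 and BLEO-HPS1 from 128647. Values without a library name follow this order. The age of these mice, the number pooled for each library and the route of bleomycin for these libraries are not given in the sources used here. With 1 library per group no difference between groups has a replicate check, no test was possible, and the intervals below cover counting error only. "Higher" and "lower" therefore compare libraries, and a gene was counted as higher or lower in a comparison when its ratio was at least 2-fold.

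*Hps1*, the targeted gene, was at 38.3 CPM, counts scaled to the library size, in PBS-WT against 16.6 CPM in PBS-HPS1, and at 48.4 CPM in BLEO-WT against 21.3 in BLEO-HPS1, lower in both *Hps1*-/- libraries without being absent. Library totals ran from 72513619 to 87638154 counts, and the limit that a count of 0 allows lay between 0.0303 and 0.0475 CPM. *Gata3*, the transcription factor that ILC2s depend on, was at 25.1 to 39.1 CPM across the 4 libraries, while *Il5* and *Il13* were each at 1.43 CPM or less in all 4. *Lyz2*, a lysozyme of macrophages and neutrophils, was at 6083 to 13145 CPM, so transcripts typical of other cells were present in each library. Log2 ratios also moved with transcript composition: across 14813 genes their Spearman correlation with GC content was 0.54 between genotypes with bleomycin and -0.07 with PBS, and between treatments it was 0.43 in WT and 0.56 in *Hps1*-/- mice. Genes are not independent replicates, and these correlations describe the libraries only. Ratios corrected for GC content and transcript length are therefore given for the 9 genes where they differ in call or direction.

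Reads of the 9 genes together took 0.325% of all counts in PBS-WT and 0.339% in PBS-HPS1, against 1.35% in BLEO-WT and 0.840% in BLEO-HPS1. Both bleomycin libraries lay above both PBS libraries, and the WT library was the higher of the bleomycin pair. *Fn1* alone supplied 47.4% of these reads in PBS-WT against 39.8% in PBS-HPS1, and 70.3% in BLEO-WT against 58.2% in BLEO-HPS1. In a bulk sample, fewer cells of a type and less RNA per cell cannot be told apart, and this holds for every level below.

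**Figure D1:**
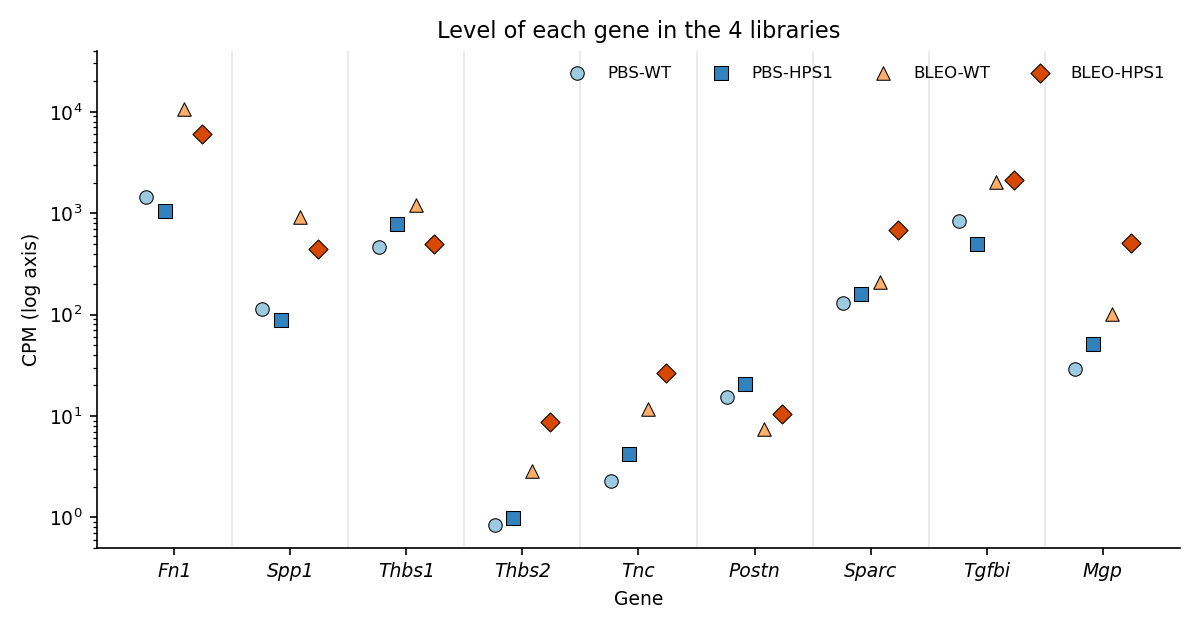
Level of each of the 9 genes in CPM on a log axis, 1 point per library (circles PBS-WT, squares PBS-HPS1, triangles BLEO-WT, diamonds BLEO-HPS1). *Fn1* reaches 10587 CPM in BLEO-WT, *Thbs2* stays below 10 CPM in each library, and *Mgp* and *Sparc* are highest in BLEO-HPS1.

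Per kilobase of transcript, the scale on which genes can be set side by side, the order of levels differed between libraries. In PBS-WT *Tgfbi* led with 277 CPM per kb, followed by *Fn1* at 172, *Thbs1* at 79.3 and *Spp1* at 75.9. In BLEO-WT *Fn1* led with 1273 CPM per kb, which placed it at rank 48 of the genes compared, ahead of *Tgfbi* at 674 and *Spp1* at 602. In BLEO-HPS1 3 genes lay within a narrow range, *Fn1* at 721 CPM per kb, *Tgfbi* at 709 and *Mgp* at 706, at ranks 139, 143 and 145. *Mgp* had been at rank 1618 in PBS-WT. *Postn*, *Tnc* and *Thbs2* were the lowest of the 9 in each of the 4 libraries, between 0.141 and 3.97 CPM per kb.

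Fibronectin and osteopontin are adhesive ligands that integrins bind through an RGD sequence, and osteopontin is also a cytokine-like product of activated macrophages. *Fn1* (ENSMUSG00000026193, minus strand, chr1:71585520-71653200 in GRCm38) was at 1432 CPM in PBS-WT against 1058 in PBS-HPS1, and at 10587 CPM in BLEO-WT against 5995 in BLEO-HPS1. *Spp1* (ENSMUSG00000029304, plus strand, chr5:104435118-104441050) was at 114 CPM in PBS-WT against 88.4 in PBS-HPS1, and at 907 CPM in BLEO-WT against 444 in BLEO-HPS1. Both genes were far higher in the bleomycin libraries than in the PBS libraries of either genotype, and both were lower in the *Hps1*-/- library of each treatment.

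With bleomycin in WT mice *Fn1* was 7.39-fold higher than with PBS (log2 ratio 2.89, 95% counting interval 2.88 to 2.90), and in *Hps1*-/- mice 5.67-fold higher (2.50, 2.49 to 2.51). *Spp1* was 7.92-fold higher in WT mice (log2 ratio 2.99, 2.95 to 3.02) and 5.02-fold higher in *Hps1*-/- mice (2.33, 2.29 to 2.36). Between the bleomycin libraries *Fn1* was 1.77-fold lower in BLEO-HPS1 than in BLEO-WT (log2 ratio -0.82), short of the 2-fold threshold. *Spp1* was 2.04-fold lower (log2 ratio -1.03), just past it, and the ratio was -0.97 with DESeq2 size factors and -0.85 after correction for GC content and length, so this call depended on the scaling. The *Fn1* ratio with bleomycin differed between genotypes by -0.38 on the log2 scale, *Hps1*-/- minus WT, but by 0.14 after that correction, so its sign was not stable. For *Spp1* the same difference was -0.66, and -0.59 corrected.

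*Fn1* and *Spp1* were the closest pair among the 9 genes. Over the 4 libraries, the distance between their centred log2 profiles was 0.16, and the next pair, *Thbs2* and *Tnc*, lay 0.53 apart. Per kilobase the level of *Fn1* was 2.27 times that of *Spp1* in PBS-WT, 2.17 times in PBS-HPS1, 2.12 times in BLEO-WT and 2.45 times in BLEO-HPS1. The ratio of the pair thus stayed within a narrow range while both levels differed several-fold between libraries. These are uncorrected values. After correction for GC content and length the PBS-HPS1 to PBS-WT log2 ratio was -0.69 for *Fn1* and -0.27 for *Spp1*. The corrected difference of bleomycin ratios, *Hps1*-/- minus WT, was 0.14 and -0.59, so the pair was less alike.

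*Tgfbi* and *Postn* encode the fasciclin-domain proteins of the list, both secreted, integrin-binding and inducible by TGF-β in many cells. *Tgfbi* (ENSMUSG00000035493, plus strand, chr13:56609523-56639562) was at 831 CPM in PBS-WT against 491 in PBS-HPS1, and at 2024 CPM in BLEO-WT against 2128 in BLEO-HPS1. It was higher with bleomycin in both genotypes, 2.43-fold in WT (log2 ratio 1.28) and 4.33-fold in *Hps1*-/- mice (2.11). The bleomycin libraries differed by 0.07 on the log2 scale, which is far inside 2-fold, and that value was -0.06 when libraries were scaled by total counts and -0.19 after correction for GC content and length. Under PBS *Tgfbi* was 1.69-fold lower in the *Hps1*-/- library (log2 ratio -0.76).

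*Postn* (ENSMUSG00000027750, plus strand, chr3:54361109-54391037) was at 15.5 CPM in PBS-WT against 20.7 in PBS-HPS1, and at 7.38 CPM in BLEO-WT against 10.5 in BLEO-HPS1. Of the 9 genes it was the one that was lower in both bleomycin libraries than in both PBS libraries. Bleomycin against PBS gave log2 ratios of -1.07 in WT and -0.98 in *Hps1*-/- mice. These signs rested on uncorrected values: after correction for GC content and length the ratios were -0.12 in WT and 1.04 in *Hps1*-/- mice. *Postn* had the lowest transcript GC content of the 9, 36.3%, against 43.3% to 53.5% for the others. Per kilobase *Tgfbi* exceeded *Postn* 93.2-fold in PBS-WT and 41.3-fold in PBS-HPS1, against 477-fold in BLEO-WT and 353-fold in BLEO-HPS1.

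Thrombospondins 1 and 2 are trimeric matricellular proteins that restrain blood vessel growth through CD36 and bind CD47, and thrombospondin 1 also activates latent TGF-β. *Thbs1* (ENSMUSG00000040152, plus strand, chr2:118111876-118127133) was at 464 CPM in PBS-WT against 784 in PBS-HPS1, and at 1215 CPM in BLEO-WT against 492 in BLEO-HPS1. The lowest and highest levels were thus both in WT libraries, and BLEO-HPS1 lay close to PBS-WT. In WT mice *Thbs1* was 2.62-fold higher with bleomycin than with PBS (log2 ratio 1.39, 1.37 to 1.41), whereas in *Hps1*-/- mice it was 1.59-fold lower (-0.67, -0.69 to -0.65). The *Hps1*-/- ratio was -0.15 after correction for GC content and length and -1.32 under total-count scaling, so its size depended on the processing. Between genotypes it was 1.69-fold higher in *Hps1*-/- under PBS (log2 ratio 0.76) and 2.47-fold lower under bleomycin (-1.30, or -0.99 after correction for GC content and length). The difference between the bleomycin ratios, *Hps1*-/- minus WT, was -2.06 on the log2 scale, -1.62 after correction and -2.44 when libraries were scaled by total counts, the largest of the 9 genes in size under TMM and total-count scaling.

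*Thbs2* (ENSMUSG00000023885, minus strand, chr17:14665500-14694235) was sparse, with 65 counts in PBS-WT against 98 in PBS-HPS1, and 226 counts in BLEO-WT against 550 in BLEO-HPS1. These are 0.834, 0.990, 2.88 and 8.71 CPM. The PBS libraries could not be told apart by counting error (log2 ratio 0.24, -0.22 to 0.72), and both bleomycin libraries lay above them. With bleomycin *Thbs2* was higher in *Hps1*-/- than in WT mice (log2 ratio 1.59, 1.37 to 1.82). Against PBS it was 3.39-fold higher in WT (1.76, 1.39 to 2.21) and 8.60-fold higher in *Hps1*-/- mice (3.10, 2.82 to 3.46). The thrombospondins thus differed in opposite directions between the bleomycin libraries. Per kilobase *Thbs1* exceeded *Thbs2* 561-fold in PBS-WT and 799-fold in PBS-HPS1, against 425-fold in BLEO-WT and 57.0-fold in BLEO-HPS1.

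Tenascin C is a large hexameric glycoprotein that is induced at sites of injury and modulates adhesion to fibronectin. *Tnc* (ENSMUSG00000028364, minus strand, chr4:63959785-64047015) was at 2.30 CPM in PBS-WT against 4.19 in PBS-HPS1, and at 11.6 CPM in BLEO-WT against 26.5 in BLEO-HPS1. Its level was low throughout, higher in *Hps1*-/- than in WT under each treatment and higher with bleomycin than with PBS. It was 2.28-fold higher in BLEO-HPS1 relative to BLEO-WT (log2 ratio 1.19, 1.07 to 1.31) and 1.82-fold higher in PBS-HPS1 than in PBS-WT (0.86, 0.61 to 1.13). With bleomycin it was 5.03-fold higher in WT and 6.30-fold higher in *Hps1*-/- mice. The difference between those log2 ratios was 0.33, and -0.05 when libraries were scaled by total counts, so it had no stable sign.

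SPARC is a calcium- and collagen-binding protein involved in the assembly of collagen fibrils. *Sparc* (ENSMUSG00000018593, minus strand, chr11:55394500-55423183) was at 130 CPM in PBS-WT against 159 in PBS-HPS1, and at 211 CPM in BLEO-WT against 683 in BLEO-HPS1. The first 3 libraries lay within 2-fold of each other and BLEO-HPS1 stood above them. It was 3.24-fold higher in BLEO-HPS1 relative to BLEO-WT (log2 ratio 1.70, 1.67 to 1.72), and 4.30-fold higher than in PBS-HPS1. In WT mice the bleomycin library was 1.63-fold higher than the PBS library (log2 ratio 0.70), which did not reach 2-fold.

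Matrix Gla protein is a small vitamin K-dependent protein that inhibits calcification of matrix and binds bone morphogenetic proteins. *Mgp* (ENSMUSG00000030218, minus strand, chr6:136872435-136875823) had the widest range of the 9 genes relative to its lowest level, with 28.9 CPM in PBS-WT and 51.6 in PBS-HPS1, against 100.6 CPM in BLEO-WT and 505 in BLEO-HPS1. Between genotypes the bleomycin libraries differed by a log2 ratio of 2.33, which was 1.90 after correction for GC content and length. Per kilobase *Fn1* exceeded *Mgp* 9.05-fold in BLEO-WT and 1.02-fold in BLEO-HPS1, so that a gene far below fibronectin in one bleomycin library equalled it in the other.

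Counts of the 9 genes past 2-fold were set beside the share of all genes compared. For bleomycin against PBS in WT mice 7 of 9 were at least 2-fold higher, with a background of 5.28% of the 14840 genes, and 1, *Postn*, was at least 2-fold lower, with a background of 8.22%. The 7 were *Fn1*, *Spp1*, *Thbs1*, *Thbs2*, *Tnc*, *Tgfbi* and *Mgp*, and the median log2 ratio over the 9 was 1.76, against 0.09 over all genes. In *Hps1*-/- mice 7 of 9 were again at least 2-fold higher with bleomycin, *Sparc* in place of *Thbs1*, and none was at least 2-fold lower. Here the background was wide, 26.2% of genes higher and 19.6% lower, and the median of the 9 was 2.33 against 0.25 over all genes. These shares moved with the scaling. Under total counts 7 genes higher and 1 lower were past 2-fold in WT mice, beside 3.24% of genes higher and 12.9% lower, and in *Hps1*-/- mice 7 were higher and 2 lower, *Thbs1* and *Postn*, beside 9.33% and 33.3%. After correction for GC content and length 7 were higher and none lower in WT mice, beside 5.54% and 5.42%, and in *Hps1*-/- mice 8 were higher and none lower, beside 18.5% and 8.22%. The treatment comparisons use no common library, but each shares a library with both genotype comparisons.

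Between the bleomycin libraries 4 of 9 genes, *Thbs2*, *Tnc*, *Sparc* and *Mgp*, were at least 2-fold higher in BLEO-HPS1, with a background of 6.72% of genes. *Spp1* and *Thbs1*, 2 of 9, were at least 2-fold lower, with a background of 10.3%. *Fn1*, *Postn* and *Tgfbi* lay within 2-fold, and the median over the 9 was 0.51 against -0.04 over all genes. After correction for GC content and length 5 genes were higher, *Postn* among them, and none was lower, with backgrounds of 5.41% and 4.3% under that correction. The corrected median was 1.34, against -0.03 over all genes. Under total counts 4 were higher and 2 lower, with backgrounds of 5.14% and 14.6%. Under PBS no gene of the 9 reached 2-fold in either direction, with backgrounds of 2.16% higher and 3.11% lower. Scaling by total counts, which moved the median of all genes from -0.19 to 0.05 in that comparison, put 3 of the 9 past 2-fold, *Thbs1*, *Tnc* and *Mgp*, all higher in PBS-HPS1, with backgrounds of 3.92% higher and 2.02% lower under total counts. After correction none of the 9 reached 2-fold, with backgrounds of 2.17% and 2.97%.

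**Figure D2:**
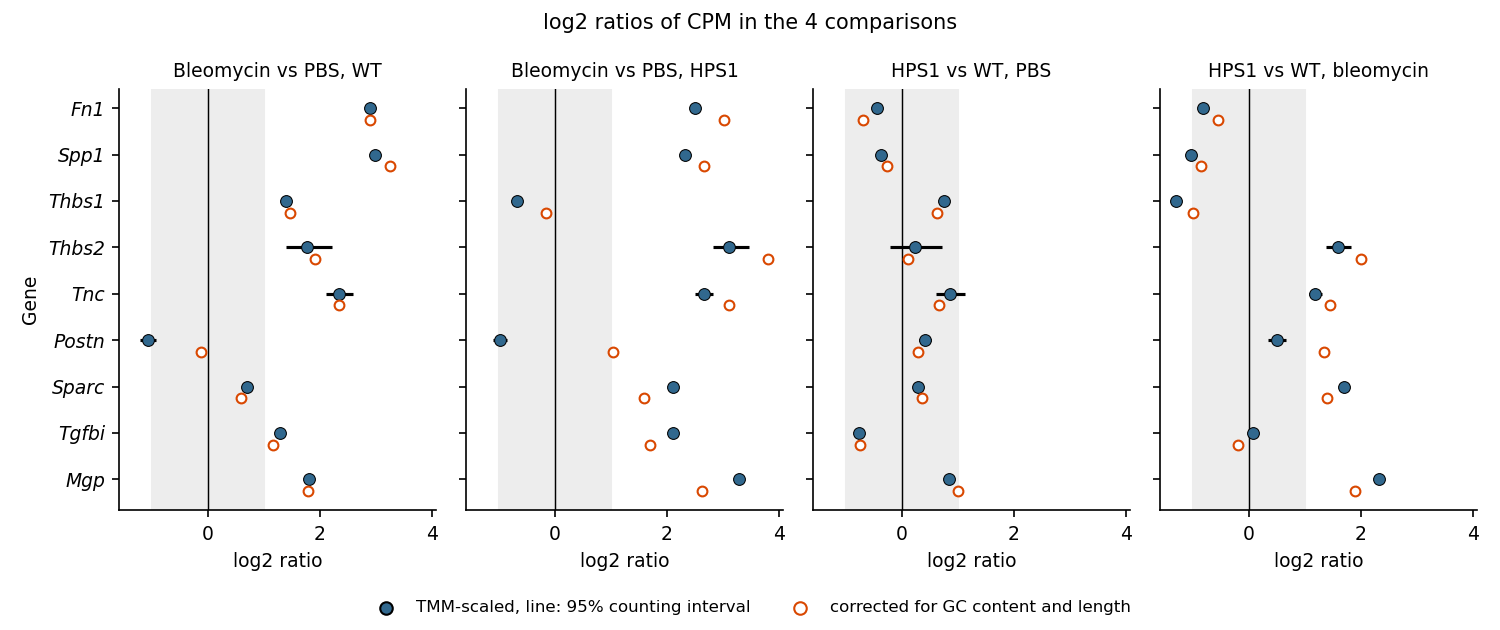
Log2 ratios of CPM for the 9 genes in the 4 comparisons. Filled points are TMM-scaled values with 95% counting intervals as lines, open points are values corrected for GC content and transcript length, and the shaded band marks ratios under 2-fold. *Thbs1* lies at 1.39 for bleomycin in WT and at -0.67 in HPS1, and the open and filled points of *Postn* are the farthest apart.

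Set side by side, the bleomycin ratios of the 9 genes split into those with a larger ratio in *Hps1*-/- mice and those with a larger ratio in WT mice. The difference of log2 ratios, *Hps1*-/- minus WT, was 1.49 for *Mgp*, 1.40 for *Sparc*, 1.35 for *Thbs2* and 0.83 for *Tgfbi*, and each of these stayed positive under total-count scaling and under the GC and length correction. It was negative for *Spp1* and *Thbs1* under each of these settings. For *Fn1*, *Tnc* and *Postn* the sign depended on the setting. None of these differences could be tested.

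**Figure D3:**
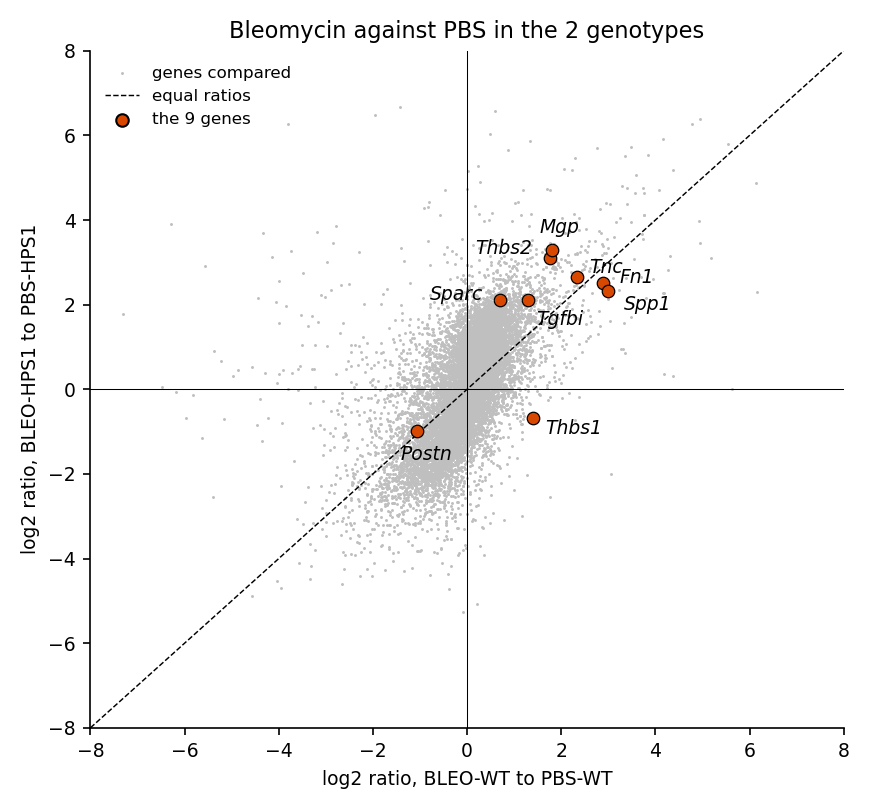
Log2 ratio of BLEO-HPS1 to PBS-HPS1 (vertical axis) against log2 ratio of BLEO-WT to PBS-WT (horizontal axis), grey points for the 14840 genes compared and orange points for the 9 genes, with a dashed line of equal ratios. *Fn1* and *Spp1* lie just below the line, *Mgp*, *Thbs2*, *Sparc* and *Tgfbi* above it, and *Thbs1* at 1.39 and -0.67 is the only one of the 9 with a positive ratio in WT and a negative one in HPS1. The ratios shown are not corrected for GC content and length.

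The number of cells per library was also lowest in PBS-WT and highest in BLEO-HPS1. Of the 9 genes, 4 (*Mgp*, *Sparc*, *Thbs2* and *Tnc*) were higher in each library than in the one with the next fewer cells, a pattern that 4.78% of all genes compared had. With total-count scaling 3 of them, *Mgp*, *Thbs2* and *Tnc*, kept that order, against 4.53% of genes. Cell number and group cannot be told apart in this design.

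Markers of fibroblasts and macrophages were measured beside the 9 genes. The 12 fibroblast markers were all detected in each library, and their summed level was 282 CPM in PBS-WT and 439 in PBS-HPS1, against 672 in BLEO-WT and 3055 in BLEO-HPS1. In BLEO-HPS1 against BLEO-WT 10 of the 12 were at least 2-fold higher, beside 6.72% of all genes, with a median log2 ratio of 2.04. The study named 4 of them, *Scara5*, *Col1a1*, *Col1a2* and *Col3a1*, from these same libraries, so they are no independent evidence of the direction. Without these 4, a choice made after seeing the data, 6 of 8 were at least 2-fold higher, the median was 1.38, and the summed levels were 145, 193, 173 and 488 CPM. *Col1a1*, which encodes a chain of type I collagen, was at 38.2, 75.1, 169.9 and 982 CPM in the same order of libraries, and *Dcn*, the fibroblast proteoglycan decorin, at 12.2, 26.0, 24.0 and 111 CPM. Relative to the median of all 12, the BLEO-HPS1 to BLEO-WT log2 ratio was 0.29 for *Mgp*, -0.35 for *Sparc*, -0.45 for *Thbs2* and -0.85 for *Tnc*. It was -2.86 for *Fn1*, -3.07 for *Spp1* and -3.34 for *Thbs1*. That median includes the 4 genes the study named. The median without them, 1.38, lay below the ratios of *Mgp* (2.33), *Sparc* (1.70) and *Thbs2* (1.59). It lay above those of *Tnc* (1.19), *Fn1*, *Spp1* and *Thbs1*. The side on which *Sparc* and *Thbs2* fell thus depended on the list. The part of fibroblast transcripts in the 4 higher genes was not tested.

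The 14 macrophage markers were likewise all detected in each library. Their summed level was 16004 CPM in PBS-WT and 11663 in PBS-HPS1, against 23513 in BLEO-WT and 21970 in BLEO-HPS1, most of it from *Lyz2* and *Chil3*, and without these 2 genes it was 2650, 2013, 7027 and 7869 CPM. In WT mice 6 of the 14 were at least 2-fold higher with bleomycin and 1, *Siglec5*, was lower, beside 5.28% and 8.22% of all genes. In *Hps1*-/- mice 6 were higher and 4 were lower, *Mrc1*, *Chil3*, *Mertk* and *Siglec5*, beside 26.2% and 19.6%. *C1qa*, a complement component made by tissue macrophages and one of the markers higher with bleomycin, was at 143, 73.2, 1391 and 2047 CPM, and *Mrc1*, the mannose receptor, at 647, 621, 702 and 266 CPM. *Adgre1*, the marker listed first, was at 252, 172, 444 and 303 CPM. In BLEO-HPS1 against BLEO-WT none was at least 2-fold higher and 3 were lower, *Mrc1*, *Cd163* and *Mertk*, beside 6.72% and 10.3% of all genes. The median was -0.51, and the ratio of *Fn1* lay 0.31 and that of *Spp1* 0.52 below that median on the log2 scale. The sorting gate removed cells positive for CD11b or Ly6C, and the study's methods state a high purity after sorting. The part of macrophage transcripts in the levels of *Fn1*, *Spp1*, *Tgfbi* and *Thbs1* was not tested.

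Of 13 ILC2 markers in the table, the summed level was 2315 CPM in PBS-WT and 1938 in PBS-HPS1, against 1290 in BLEO-WT and 1249 in BLEO-HPS1. In the PBS libraries most of it came from *Ptprc*, the leukocyte antigen CD45. Without that gene, a choice made after seeing the data, the sums were 886, 787, 761 and 915 CPM. *Thy1* supplied 306.5, 206, 224 and 551 CPM of these sums, so most of the sum in BLEO-HPS1 came from this gene. *Thy1* and *Klrg1*, 2 of the 12 ILC2 markers compared, were at least 2-fold higher in BLEO-HPS1 than in either BLEO-WT or PBS-HPS1, and after correction for GC content and length neither was so against BLEO-WT. Against PBS-HPS1, 6 of the 12 were at least 2-fold lower, *Icos*, *Rora*, *Il7r*, *Ptprc*, *Il5* and *Il13*, with a list median of -1.01. Over all genes 26.2% were higher and 19.6% lower in that comparison. In BLEO-WT against PBS-WT none was higher and 3 were lower, *Rora*, *Ptprc* and *Il13*, with a median of -0.53. The shares of all genes there were 5.28% and 8.22%. After correction 2 were higher and 2 lower in *Hps1*-/- mice, beside 18.5% and 8.22% of genes. In WT mice none was then higher and 1 was lower, beside 5.54% and 5.42%. For BLEO-HPS1 against BLEO-WT, 2 smooth muscle and pericyte markers of 6 compared were at least 2-fold higher (*Acta2* and *Tagln*) and 2 platelet markers of 4 were lower (*Ppbp* and *Itga2b*). Of the epithelial markers 1 of 7, *Sftpb*, was lower, and none of 6 endothelial and 3 mesothelial markers reached 2-fold. Over all genes 6.72% were higher and 10.3% lower in that comparison. Platelets carry thrombospondin 1 in their granules. With bleomycin the 4 platelet markers compared had a median of -0.53 in WT. There 1 was higher and none lower, beside 5.28% and 8.22% of all genes. In *Hps1*-/- mice the median was -1.02, with 1 higher and 2 lower, beside 26.2% and 19.6%. The higher one was *Pf4* in both, and the lower ones were *Ppbp* and *Itga2b*. Corrected for GC content and length, 1 was higher and 1 lower in WT, beside 5.54% and 5.42%. In *Hps1*-/- mice 1 was then higher and 3 lower, beside 18.5% and 8.22%. The part of platelet transcripts in the level of *Thbs1* was not tested. After correction, in BLEO-HPS1 against BLEO-WT 11 fibroblast and 1 smooth muscle and pericyte markers were higher, and 2 macrophage, 3 platelet and 2 epithelial markers were lower. The shares of all genes under that correction were 5.41% higher and 4.3% lower. With bleomycin against PBS the corrected counts of macrophage markers were 4 higher and 1 lower in WT, beside 5.54% and 5.42% of genes. In *Hps1*-/- mice they were 5 higher and 3 lower, beside 18.5% and 8.22%.

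**Figure D4:**
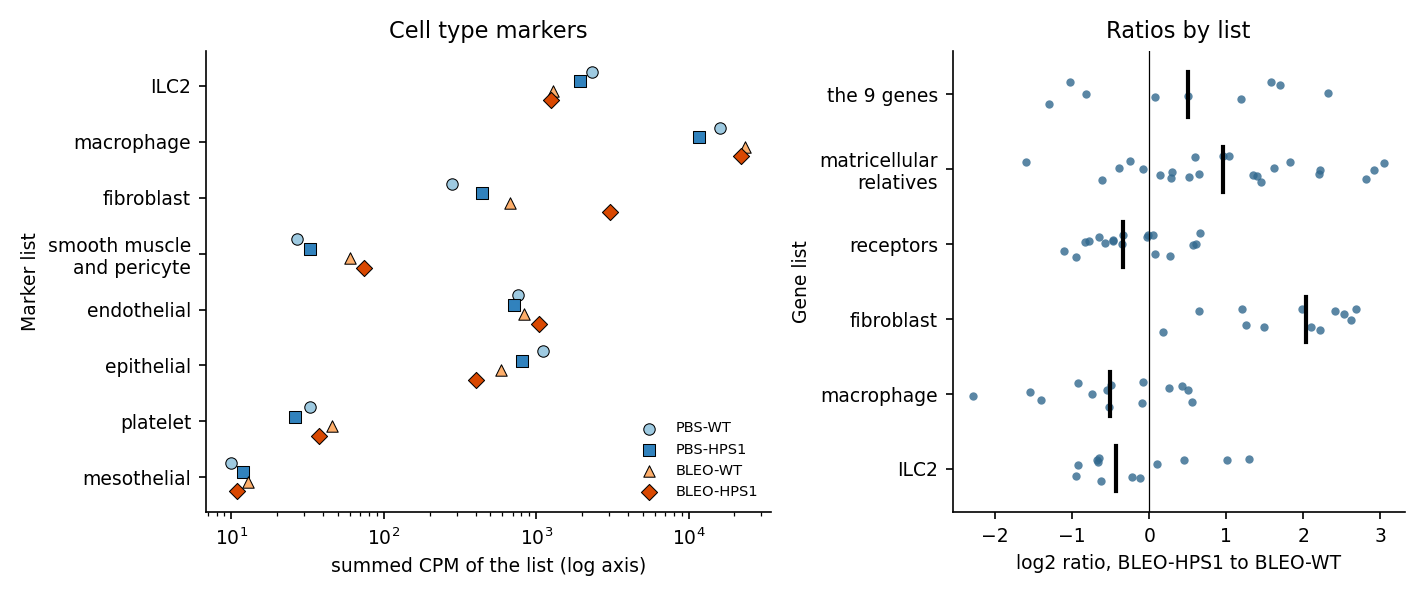
Left, summed CPM of each marker list in the 4 libraries, on a log axis. Right, log2 ratio between BLEO-HPS1 and BLEO-WT for each compared gene of 6 lists (points), with list medians as black bars. Fibroblast markers are highest in BLEO-HPS1 at 3055 CPM, and ILC2 markers lie between 1249 and 2315 CPM. At right, the median ratio of the fibroblast markers is 2.04 and that of the macrophage markers -0.51.

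Other matricellular genes, related to the 9 by family, were read from a list of 30, of which 23 passed the filter. In BLEO-HPS1 against BLEO-WT 11 were at least 2-fold higher and 1 lower, beside 6.72% and 10.3% of all genes, with a median log2 ratio of 0.96. Tenascin X (*Tnxb*), which organises collagen, was at 17.2 CPM in PBS-WT against 37.5 in PBS-HPS1, and at 34.9 CPM in BLEO-WT against 161 in BLEO-HPS1, a log2 ratio of 2.21 between the bleomycin libraries. The CCN family genes *Ctgf*, encoding connective tissue growth factor, and *Wisp2* had log2 ratios of 1.40 and 2.92, and the SPARC relative *Smoc2* had 2.81. *Thbs3* (1.45), the spondin gene *Spon2* (3.05) and the basement membrane gene *Nid1* (1.04) were also higher in BLEO-HPS1. The 1 lower gene was *Nov* (log2 ratio -1.61), which is named after its values were seen because its level, at most 8.44 CPM, fell under the naming rule.

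Of the 3 relatives with the highest level per kilobase, *Ecm1* differed most with bleomycin. *Ecm1*, which encodes a secreted glycoprotein of the matrix, was at 44.0 CPM in PBS-WT against 32.7 in PBS-HPS1, and at 662 CPM in BLEO-WT against 503 in BLEO-HPS1, with log2 ratios of bleomycin to PBS of 3.91 in WT and 3.94 in *Hps1*-/- mice. *Sparcl1*, the closest relative of *Sparc*, was at 56.6, 72.0, 99.0 and 155 CPM in the same order and so was within 2-fold between the bleomycin libraries (log2 ratio 0.64). *Cyr61*, a CCN gene, was at 29.8, 55.1, 53.4 and 76.3 CPM. In WT mice 5 of the 23 relatives were at least 2-fold higher with bleomycin and 2 lower, beside 5.28% and 8.22% of all genes. Their median was 0.54, against 0.09 over all genes. In *Hps1*-/- mice 15 were higher and 1 lower, beside the wider shares of 26.2% and 19.6%, and the median was 1.34 against 0.25 over all genes. After correction these counts were 4 and 1 in WT, beside 5.54% and 5.42%, and 17 and 1 in *Hps1*-/- mice, beside 18.5% and 8.22%.

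Receptors of these proteins were read from a list of 18 genes. Of these 18 integrin, syndecan and other receptor genes, none was at least 2-fold higher in BLEO-HPS1 relative to BLEO-WT and 1 was lower, beside 6.72% and 10.3% of all genes. The median log2 ratio was -0.34, or 0.13 after correction for GC content and length. The lower one was *Cd36*, a thrombospondin receptor, at 238 CPM in PBS-WT against 201 in PBS-HPS1, and at 196 CPM in BLEO-WT against 90.5 in BLEO-HPS1, a log2 ratio of -1.11 that was -0.44 when corrected. *Itgb5*, the integrin β5 chain, was at 164, 132, 534 and 647 CPM in the same order of libraries. *Itgb1*, the integrin β1 chain, was at 569, 488, 509 and 341 CPM, and *Lrp1*, an endocytic receptor of thrombospondins, at 1499, 1288, 2764 and 1752 CPM. *Itgb5* was thus higher with bleomycin in both genotypes, and *Itgb1* within 2-fold in each comparison. With bleomycin in WT mice 4 receptors were at least 2-fold higher and 1 lower, beside 5.28% and 8.22% of all genes. In *Hps1*-/- mice 4 were higher and 5 lower, beside wide shares of 26.2% and 19.6% of all genes. After correction 9 were higher and none lower in *Hps1*-/- mice, beside 18.5% and 8.22%.

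Among 9233 genes with a mean of at least 10 CPM, those with the profile over the 4 libraries most like each of the 9 were found by the distance between centred log2 CPM values. For *Mgp* they were *Col1a2*, a chain of type I collagen, and *Mmp3*, a matrix metalloproteinase, at distances of 0.14 and 0.18. The nearest genes to *Thbs2* were *C1qtnf6* and *Col3a1* (0.35 and 0.44), those to *Tnc* were *Eln*, which encodes elastin, and *Ltbp3* (0.38 and 0.40), and those to *Sparc* were *Cxcl14* and *Dbn1* (0.09 and 0.11). *Fn1* lay nearest to the membrane transporter genes *Slc37a2* and *Slc6a8* (0.35 and 0.37), and *Spp1* to *Cspg4* and *Slc6a8* (0.46 for both). *Thbs1* lay nearest to *Nr4a3*, an orphan nuclear receptor induced rapidly by stimulation, and to the clock gene *Per2* (0.15 and 0.16). *Tgfbi* lay nearest to *Ldhb* and *P2ry6* (0.02 and 0.12), and *Postn* to *Il17rb*, the IL-25 receptor of ILC2s, and *Stat4*, a lymphocyte transcription factor (0.24 and 0.26). With 4 points per profile, and the same depth and composition shared within each library, these likenesses are descriptions.

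**Figure D5:**
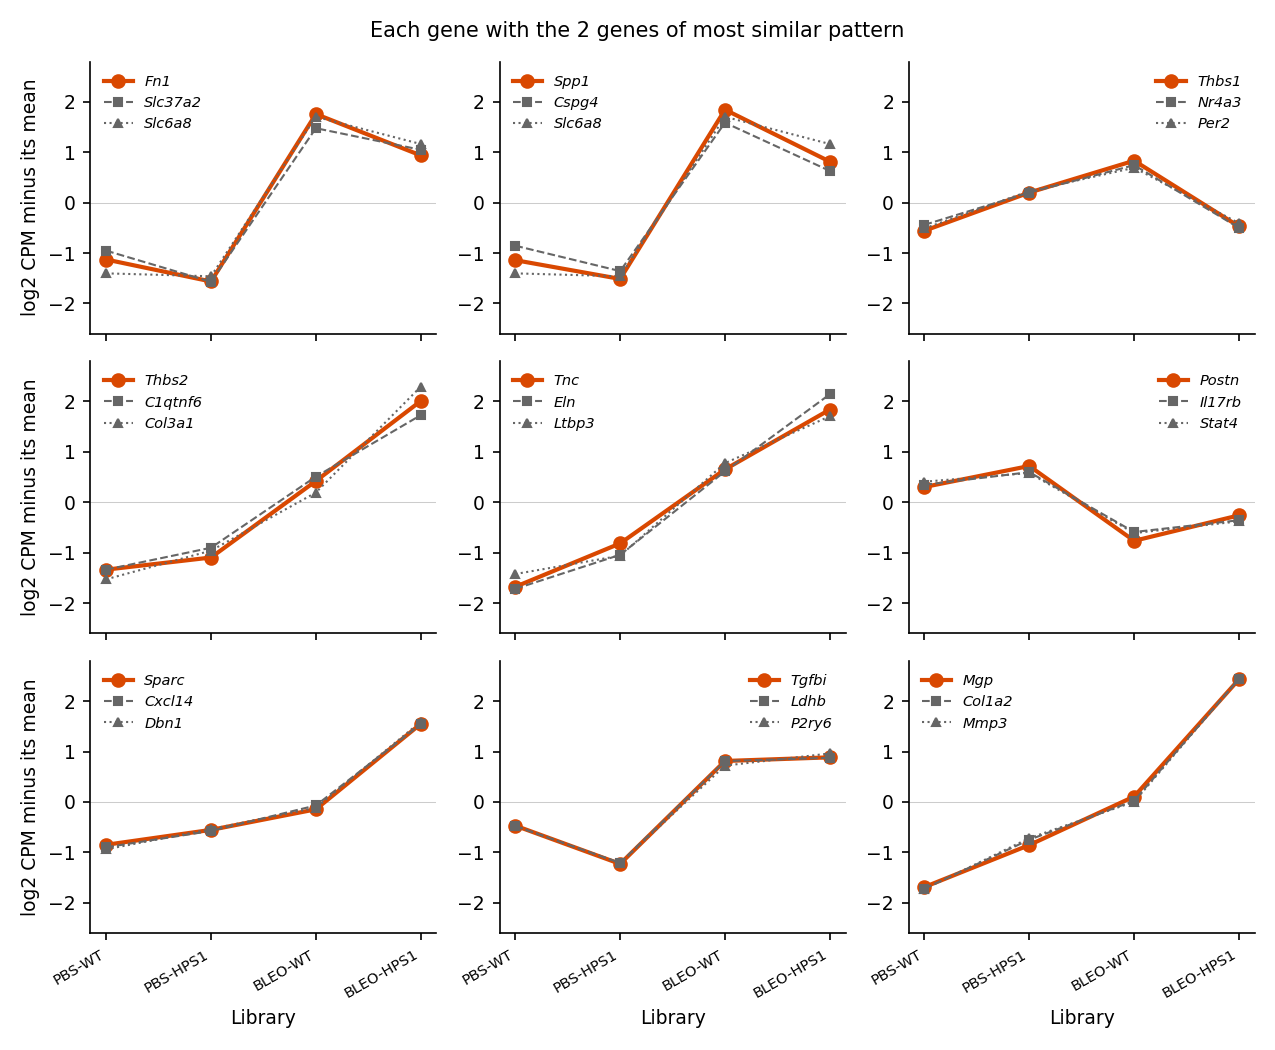
Log2 CPM centred on each gene's mean over the 4 libraries, 1 panel for each of the 9 genes (thick orange line) with its 2 nearest genes (dashed and dotted grey lines). Lines join libraries only to guide the eye. *Thbs1*, *Nr4a3* and *Per2* peak in BLEO-WT, whereas *Mgp*, *Col1a2* and *Mmp3* peak in BLEO-HPS1.

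Promoter sequence is shown for each of the 9 genes that had a usable start site, whichever way it differed. In uncorrected TMM values *Spp1* was lower and *Thbs2* and *Tnc* were higher in BLEO-HPS1 relative to BLEO-WT. *Tgfbi* was within 2-fold between them and *Postn* was lower with bleomycin. The *Spp1* call and the *Postn* direction depended on the processing. RefSeq start sites (GRCm38.p6) were at hand for 6 of the 9 genes, and that of *Sparc* lay 3103 bases from the GENCODE start and was not used. Each run is the 150 bases before the start, 5′ to 3′ on the gene's strand, with matches to 5 searched motifs in capitals on either strand, namely the TATA box TATAAA, the CCAAT box CCAAT, the GC box GGGCGG, the RUNX motif AACCACA and the AP-1 motif TGACTCA.
Spp1, chr5:104434961-104435110, plus strand: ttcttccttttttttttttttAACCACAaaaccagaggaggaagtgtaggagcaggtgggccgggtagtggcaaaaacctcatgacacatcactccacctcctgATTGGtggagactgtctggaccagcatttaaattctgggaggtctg
Thbs2, chr17:14694263-14694412, minus strand: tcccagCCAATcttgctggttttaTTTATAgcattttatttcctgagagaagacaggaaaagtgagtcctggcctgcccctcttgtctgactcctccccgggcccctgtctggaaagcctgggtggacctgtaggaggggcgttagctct
Tnc, chr4:64047016-64047165, minus strand: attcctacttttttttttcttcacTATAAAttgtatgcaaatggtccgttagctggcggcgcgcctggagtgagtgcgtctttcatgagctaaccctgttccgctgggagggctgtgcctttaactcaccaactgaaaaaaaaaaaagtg
Postn, chr3:54360957-54361106, plus strand: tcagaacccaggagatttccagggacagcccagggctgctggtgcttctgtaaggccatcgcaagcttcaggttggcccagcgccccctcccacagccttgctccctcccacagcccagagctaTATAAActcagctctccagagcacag
Tgfbi, chr13:56609436-56609585, plus strand: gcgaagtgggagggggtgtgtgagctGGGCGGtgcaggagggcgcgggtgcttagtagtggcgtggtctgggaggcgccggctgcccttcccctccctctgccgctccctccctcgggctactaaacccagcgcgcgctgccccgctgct

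A TATA box match lay 26 bases before the start of *Postn* and 126 bases before those of *Thbs2*, on the opposite strand, and *Tnc*. Of all 32851 windows of the same length 7.57% held such a match. *Spp1* held a CCAAT box match on the opposite strand, 46 bases before its start, and a RUNX match 129 bases before it, motifs found in 24.5% and 2.61% of windows. *Thbs2* held a CCAAT box match 144 bases before its start, and *Tgfbi* a GC box match 124 bases before its start, found in 28.6% of windows. None of the 5 windows held the AP-1 letters, which 2.84% of windows had. The matches describe sequence only, since no binding was measured in these libraries.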

How the data were processed

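RNA of lung ILC2s was sequenced in 4 groups with 1 library each. Per the labels, total RNA was extracted with an RNeasy kit, and the sequencing libraries came from a SMARTER mRNA kit. The authors deposited counts, whole reads per Ensembl gene without normalization. The aligner, counting tool and genome build are not given in the sources used here. Of the identifiers, 49056 were found in GENCODE M21 (GRCm38), used for positions, GC content and the length of the longest transcript.

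Counts were scaled by TMM in edgeR 4.0.16 (R 4.3.3) to log2 CPM with a prior count of 2, for 14840 genes with at least 1 CPM in at least 1 library. Ratios are differences of these values, with 95% Clopper-Pearson intervals. With 1 library per group no spread could be estimated. In data with known answers, 100 of 100 genes set 4-fold higher and 100 of 100 set 4-fold lower in BLEO-HPS1 against BLEO-WT, among 14840, were recovered, and 2 unchanged genes passed 2-fold. The simulated counts carried counting error only, without spread between animals or GC and length effects, and very low genes were not among those changed. This checks the calculation of the ratios and gives no error rate for the real libraries. Alternatives were DESeq2 1.42.0 size factors, total counts, other prior counts, filters and thresholds, a loess correction (span 0.3) for GC content and length, and an assumed coefficient of variation.

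The genes, lists and alternatives were chosen with earlier results of these data known. All 9 genes are named. Related genes and receptors were named if at least 2-fold apart between the bleomycin libraries with at least 10 CPM in the higher, or among the 3 with the highest CPM per kb. For each of the 9, the 2 genes nearest in pattern were named. Marker genes given with levels are examples from their lists, not always those listed first, and do not stand for the whole list.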

Additional observations from a re-analysis of the deposited data

Results flagged for a closer look

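*Thbs1* was noted because its ratios pointed in opposite directions. Bleomycin against PBS gave a log2 ratio of -0.67 in *Hps1*-/- mice and 1.39 in WT mice, and *Hps1*-/- against WT gave -1.30 with bleomycin and 0.76 with PBS. After correction for GC content and length the ratio in *Hps1*-/- mice was -0.15, close to no difference. *Tgfbi* was noted because *Hps1*-/- against WT gave a log2 ratio of 0.072 with bleomycin and -0.76 with PBS, and the first of these had the other sign under total-count scaling and after correction for GC content and length. With 1 library per group these differences were not tested.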

How the results depend on the processing

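No paired analysis was possible because each group had 1 library, and no library could be left out. In BLEO-HPS1 against BLEO-WT, 1 of the 9 genes was higher and 0 lower at a log2 ratio of 2, 0 higher and 0 lower by edgeR's exact test with an assumed coefficient of variation of 0.4, 1 lower with DESeq2 size factors, and 0 lower with a median of 1.34 after the GC and length correction. In PBS-HPS1 against PBS-WT, total-count scaling gave 3 higher and a median of 0.54. In BLEO-WT against PBS-WT, 3 were higher and 0 lower at a log2 ratio of 2, 0 and 0 with the assumed variation, and 0 lower after the correction. In BLEO-HPS1 against PBS-HPS1, 2 were higher with the assumed variation, 2 were lower with a median of 1.68 under total counts, and the median was 2.63 after the correction. Of 45 log2 values per setting, 3 changed sign under total counts and 3 under the correction, and 0 under DESeq2 size factors, other prior counts or other filters. Total counts moved the median log2 ratio of all genes from 0.25 to -0.39 in BLEO-HPS1 against PBS-HPS1. The cause of these shifts was not tested. The share of all genes was not counted for the log2 ratio of 2, the assumed variation or DESeq2 size factors. Under those settings the counts of the 9 therefore have no background and cannot be read as many or few. Depth limits *Thbs2* most, with 65 counts in PBS-WT.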

Other observations

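Some genes of the lists of relatives and receptors, picked after their values were seen, are given here. *Matn2*, which encodes the matrix adaptor matrilin 2, was at 53.7 CPM in PBS-WT against 47.7 in PBS-HPS1, and at 15.5 CPM in BLEO-WT against 17.1 in BLEO-HPS1. Bleomycin against PBS gave log2 ratios of -1.79 in WT and -1.48 in *Hps1*-/- mice, and -1.84 and -1.52 after correction for GC content and length, so that its direction, unlike that of *Postn*, did not turn with the correction. *Stab1*, a scavenger receptor that binds and internalises SPARC, was at 77.4, 105, 551 and 578 CPM in the same order of libraries, higher with bleomycin in both genotypes and within 2-fold between them. *Nov* was at 5.95 CPM in PBS-WT and 0.858 in PBS-HPS1, a log2 ratio of -2.76. *Thbs4* was at 0.962 and 0.101 CPM, a log2 ratio of -2.97 that rested on 10 counts in PBS-HPS1. In that comparison 3 of the 23 relatives were at least 2-fold lower, these 2 and *Tnr*, beside 3.11% of all genes. Another 3, *Tnxb*, *Smoc2* and *Ctgf*, were higher, beside 2.16%. None of the 9 reached 2-fold there with TMM scaling. Each value comes from 1 library and none of these differences was tested.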
